A study of Mus musculus with 4 samples.

Results

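Of the 32285 genes counted in single cells of MC38 tumors, 6 are described here: Edil3, Csmd3, Ldlrad4, Tafa1, Dclk1 and Psd3. They were chosen with earlier results of these data known, because their levels in tumor cells were lower in the libraries with mutant RAC1 than in the WT control library. That difference selected the genes and is therefore given as a description and not as a result. The data came from single-cell RNA sequencing of subcutaneous MC38 tumors, a mouse colon adenocarcinoma line, grown in young adult C57BL/6 mice. The tumor cells carried WT RAC1 or the A159V substitution, which was knocked in at the endogenous gene of this small GTPase with CRISPR-Cas9 and grown out as a homozygous clone. With 1 clone, the effects of the edit and of cloning cannot be told apart here. Mice received a checkpoint-blocking antibody to PD1 (anti-PD1) or an IgG isotype control, which gave WT IgG and WT anti-PD1 tumors as well as the A159V IgG and A159V anti-PD1 tumors, with 1 library each. Where 4 values follow each other below, they stand in that order. Bead-sorted CD45+ and CD45- fractions were mixed again before loading, and the number of mice behind each library is not given in the sources used here.

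The 6 genes code for proteins with unlike roles. Edil3 is a secreted matrix protein that binds integrins, and Tafa1 is a small secreted protein known from neurons. Csmd3 is a very large membrane protein with CUB and sushi domains, and Ldlrad4 is a membrane protein that restrains TGF-beta signaling. Inside the cell, Dclk1 is a microtubule-associated kinase that is used as a marker of tuft cells in the gut, and Psd3 is an exchange factor that activates the small GTPase ARF6.

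The start regions of these genes were available for Tafa1 and Dclk1. They are shown because Tafa1 had the lowest ratio of all genes, and because Dclk1 has more than 1 annotated start, which counts at the 3′ end do not separate. The sequences are from RefSeq for GRCm38.p6 and run 5′ to 3′ on the plus strand, over 300 bases that hold the start near their 3′ end. Capitals mark matches to TGANTCA, the core site of AP-1 transcription factors, searched on both strands.
Tafa1, chr6:96112904-96113203: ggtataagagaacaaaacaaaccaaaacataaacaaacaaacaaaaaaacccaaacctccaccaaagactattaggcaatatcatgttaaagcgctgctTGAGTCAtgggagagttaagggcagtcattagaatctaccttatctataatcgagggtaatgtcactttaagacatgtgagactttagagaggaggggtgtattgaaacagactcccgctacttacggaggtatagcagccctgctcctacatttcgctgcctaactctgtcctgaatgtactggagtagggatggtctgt
Dclk1, first start, chr3:55242114-55242413: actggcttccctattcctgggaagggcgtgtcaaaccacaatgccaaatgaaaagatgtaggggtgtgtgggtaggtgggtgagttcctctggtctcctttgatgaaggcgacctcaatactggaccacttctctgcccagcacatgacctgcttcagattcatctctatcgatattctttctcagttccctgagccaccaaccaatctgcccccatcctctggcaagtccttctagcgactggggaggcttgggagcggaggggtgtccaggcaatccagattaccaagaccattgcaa
Dclk1, internal start, chr3:55461478-55461777: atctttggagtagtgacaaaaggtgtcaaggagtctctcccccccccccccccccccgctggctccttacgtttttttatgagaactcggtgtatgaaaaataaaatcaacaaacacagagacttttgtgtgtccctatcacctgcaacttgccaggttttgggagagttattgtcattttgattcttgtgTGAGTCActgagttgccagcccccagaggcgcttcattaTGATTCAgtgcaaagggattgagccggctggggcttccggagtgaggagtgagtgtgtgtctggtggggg

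The Tafa1 window holds 1 match to TGANTCA, the internal Dclk1 window holds 2, and the first Dclk1 window holds 0. Of 32851 start windows of the same length, 7.81% hold this motif. None of the 3 windows holds the GC box GGGCGG (35.7% of all windows) or the TATA box TATAAA (13.6%), each searched on both strands, and no motif overlapped another. A match is a description of letters, not of a bound site. GC content was 42.0% for Tafa1, 52.7% for the first start of Dclk1 and 50.3% for the internal one, against a median of 52.7% over all windows.

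Tumor cells were taken as cells with at least 5000 unique molecular identifiers (UMIs), at least 2 UMIs of Hmga2 and Tm4sf1 together and 0 UMIs of the leukocyte gene Ptprc. This gate held 1589 of 7802, 491 of 7430, 2229 of 8685 and 1706 of 9311 cells, with median depths of 21263 to 42881.5 UMIs per cell. Library totals ran from 54402632 to 125227747 UMIs, and each pair of libraries shared 13 to 22 cell barcodes. Rhox5 and Prl2c2, which mark MC38 cells in these libraries, checked the gate. Rhox5 stood at 949, 80.5, 1093 and 1051 CPM (counts per 1e6 UMIs of the class), and in WT anti-PD1, the low library, the fibroblast collagen gene Col1a1 reached 15711 CPM. The gated cells of WT anti-PD1 therefore go against the name tumor cells, and their levels are not read as tumor levels. The epithelial keratins Krt8 and Krt18 were between 0 and 0.364 CPM in all 4 libraries, and all 3 tuft cell markers examined, Pou2f3, Trpm5 and Avil, stayed under 10 CPM. The edited gene, Rac1, was at 441, 317, 411 and 405 CPM, and a base change cannot be read from such counts.

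A narrower gate was added after these values were seen. It also required Rhox5 and Prl2c2 together at 200 CPM or more in the cell, and its cells are called tumor-line cells. It kept 1518, 43, 2185 and 1650 cells, or 95.5%, 8.76%, 98.0% and 96.7% of the wider gate.

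All 6 genes were clearly present in WT IgG tumor cells and low in both A159V libraries. In WT IgG Edil3 was at 112 CPM (exact Poisson interval at 95%, 109.5 to 115), while A159V IgG had 6.08 CPM (5.54 to 6.66) and A159V anti-PD1 had 7.99 CPM (7.37 to 8.65). Tafa1 was at 83.8 CPM in WT IgG (81.4 to 86.3) and at 1.19 and 1.15 CPM in A159V IgG and A159V anti-PD1, from 91 and 88 UMIs. These 2 genes code for the secreted proteins of the set, and for both the WT IgG interval lay far above those of the A159V libraries. Intervals here and below cover counting error only, and with 1 library per group no test was possible.

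The genes of the membrane proteins were also highest in WT IgG, but differed in the order of the A159V libraries. Csmd3 had 47.2 CPM (45.4 to 49.0) in WT IgG, against 1.90 CPM (1.60 to 2.24) in A159V IgG and 1.38 CPM (1.13 to 1.67) with anti-PD1. Ldlrad4 was at 74.7 CPM (72.4 to 77.1), 8.73 CPM (8.08 to 9.42) and 13.1 CPM (12.3 to 13.9). For Csmd3 the intervals of the 2 A159V libraries overlapped, and for Ldlrad4 they did not.

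The genes of the intracellular proteins were highest in WT IgG as well. Between the A159V libraries, Dclk1 was higher and Psd3 lower with anti-PD1 in the wider gate. Dclk1 had 70.5 CPM (68.3 to 72.7) in WT IgG, against 4.08 CPM (3.64 to 4.56) in A159V IgG and 5.66 CPM (5.14 to 6.22) with anti-PD1. In A159V tumor-line cells the Dclk1 intervals overlapped, at 2.06 CPM (1.75 to 2.41) with IgG and 2.28 CPM (1.95 to 2.64) with anti-PD1. Psd3 was at 158 CPM (155 to 161), 21.3 CPM (20.3 to 22.4) and 19.3 CPM (18.3 to 20.3), and it kept the most of its WT level in A159V IgG among the 6 genes.

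**Figure D1:**
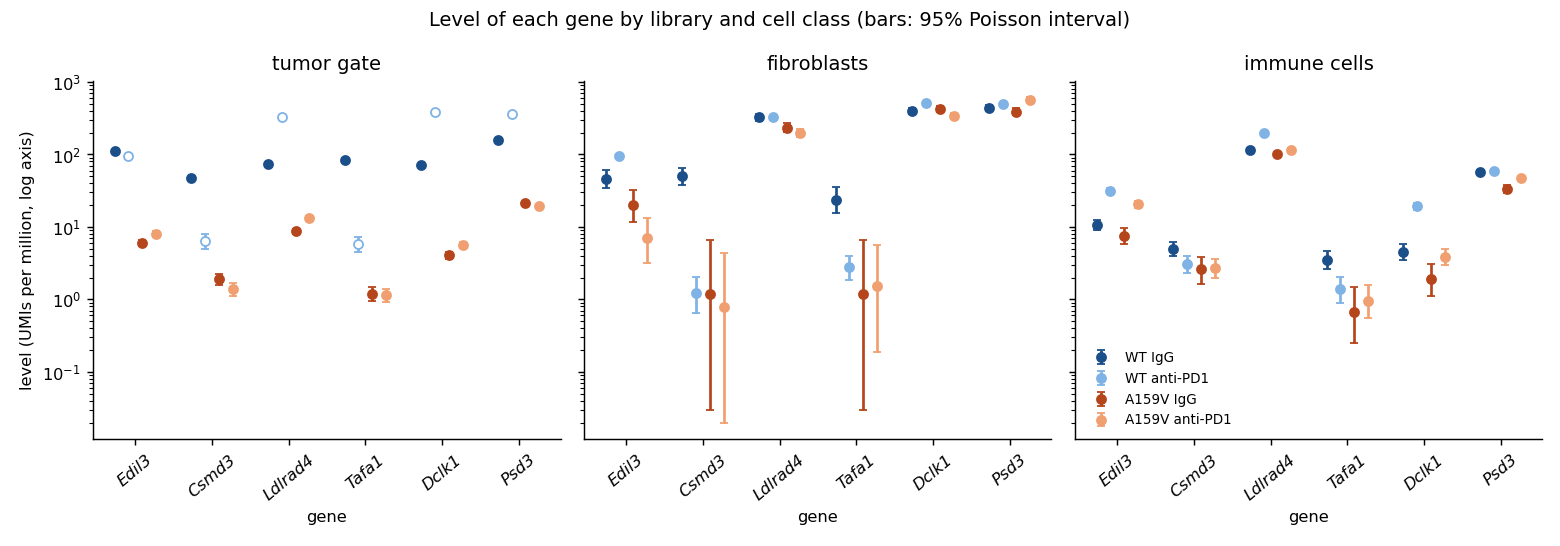
Level of each of the 6 genes in CPM on a log axis, in the tumor gate, fibroblasts and immune cells. Points are libraries, bars are 95% Poisson intervals, and open points mark the WT anti-PD1 gate, whose cells carry fibroblast genes. In the tumor gate all 6 genes are higher in WT IgG than in both A159V libraries, while Ldlrad4, Dclk1 and Psd3 lie at 197 to 572 CPM in the fibroblasts of every library.

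As log2 ratios of A159V IgG over WT IgG with 1 CPM added, the genes ran from -5.27 for Tafa1 (95% interval, -5.44 to -5.11) to -2.83 for Psd3 (-2.90 to -2.76). Csmd3 was at -4.05, Edil3 at -4.00, Dclk1 at -3.82 and Ldlrad4 at -2.96. In tumor-line cells Dclk1 was at -4.37, or 30.2 times higher in WT IgG against 17.3 times in the wider gate. In fold terms WT IgG was 70.3 times higher for Tafa1 and 7.40 times higher for Psd3. All 6 were at least 2-fold lower, which is what chose them, and so were 4.44% of the 8926 genes that reached 10 CPM in either library. The median over the 6 genes was -3.91, and over all genes tested it was -0.02. Tafa1 had the lowest ratio of all genes tested, Csmd3, Edil3 and Dclk1 ranked 4 to 6, and Ldlrad4 and Psd3 ranked 14 and 19.

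**Figure D2:**
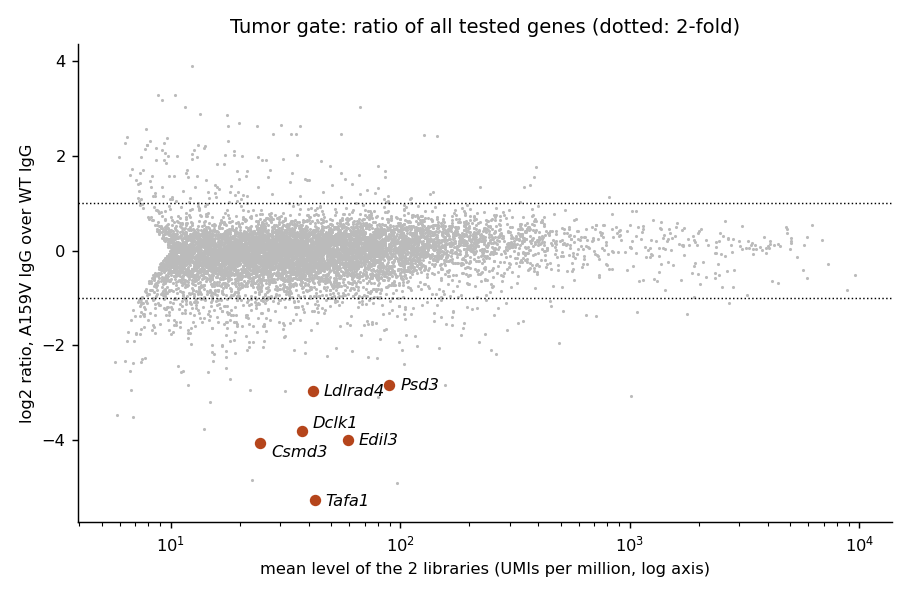
Log2 ratio of A159V IgG to WT IgG in the tumor gate against mean level in CPM on a log axis, for 8926 genes, with the 6 genes in color and dotted lines at 2-fold. The 6 genes were selected for this ratio and lie between -5.27 and -2.83.

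With A159V anti-PD1 in place of A159V IgG the log2 ratios over the same WT IgG library were -5.31 for Tafa1, -4.34 for Csmd3, -3.66 for Edil3, -3.42 for Dclk1, -2.97 for Psd3 and -2.42 for Ldlrad4. All 6 were at least 2-fold lower, as their choice on both A159V libraries made expected, and so were 2.74% of 8949 genes. Both comparisons share the WT IgG library and are not independent of each other. Within A159V tumors, the ratios of anti-PD1 over IgG were small, from -0.29 for Csmd3 (-0.51 to -0.06) to 0.54 for Ldlrad4 (0.41 to 0.66). None of the 6 genes was past 2-fold in this comparison, as was the case for nearly all genes, since 0.185% of 8648 genes were past 2-fold either way. Only Ldlrad4 and Psd3 reached the 10 CPM minimum there. In tumor-line cells the Ldlrad4 ratio went from 0.54 to 0.39, the Dclk1 ratio from 0.39 to 0.10 and the Psd3 ratio from -0.14 (-0.24 to -0.04) to -0.37 (-0.47 to -0.27).

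The 43 tumor-line cells of WT anti-PD1 were too few for a comparison of treatments and are given as counts, of 2351380 UMIs in all. Edil3 had 227 UMIs in them, with 13 of 43 cells holding a UMI after thinning to 5000 UMIs per cell. Psd3 had 606 UMIs, Ldlrad4 had 207, Dclk1 had 183 and Csmd3 had 67. Tafa1 had 8 UMIs, or 3.40 CPM (1.47 to 6.70), none of which was drawn in thinning. Of these Tafa1 UMIs, 3 came from 1 cell. The other genes stood at 96.5 CPM (Edil3), 258 CPM (Psd3), 88.0 CPM (Ldlrad4), 77.8 CPM (Dclk1) and 28.5 CPM (Csmd3). With so few cells, no level of the 6 genes is compared with those of other libraries. In all, 17 of the 43 cells held 2 or more of the 6 genes. Immune marker genes summed to 335 CPM in these cells against 59.2 CPM in WT IgG tumor-line cells, and fibroblast markers to 1469 CPM against 449 CPM, and the part of these in the counts was not tested.

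Fibroblasts separated the set into 2 groups of genes. They were taken as cells with at least 5000 UMIs, no Ptprc, Hmga2, Pecam1 or Cdh5, and at least 0.2% of UMIs from Col1a1, Col1a2, Col3a1 and Dcn, and numbered 72, 697, 87 and 111. Dclk1 was at 402, 518, 427 and 339 CPM in the fibroblasts of these libraries. Psd3 was at 438, 504, 390 and 572 CPM and Ldlrad4 at 328, 329, 235 and 197 CPM. These 3 genes were thus higher in fibroblasts of every library than in WT IgG tumor cells. Their fibroblast levels in A159V tumors stayed within 2-fold of those in WT tumors, while the tumor cells of the same libraries were low.

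Csmd3 and Tafa1 were near 0 in fibroblasts outside WT IgG. Csmd3 had 13, 1 and 1 UMIs in the fibroblasts of the other 3 libraries, and Tafa1 had 30, 1 and 2. In WT IgG fibroblasts they stood at 50.3 CPM (37.7 to 65.8) and 23.7 CPM (15.4 to 35.0), where Rhox5 was also at 157 CPM. All 53 Csmd3 UMIs and all 25 Tafa1 UMIs there came from 9 cells with Rhox5 and Prl2c2 at 200 CPM or more. The other 63 fibroblasts had 0 UMIs of either gene, which allows at most 4.27 CPM. In WT IgG, counts of Csmd3 and Tafa1 among these cells thus came with tumor-line markers, while Dclk1, Psd3 and Ldlrad4 were at 454, 393 and 346 CPM in the 63 cells without them.

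Edil3 lay between these groups. Its fibroblast level was highest in WT anti-PD1, at 94.0 CPM, followed by 46.5 CPM in WT IgG (34.4 to 61.5), 20.1 CPM (11.7 to 32.2) in A159V IgG and 6.96 CPM (3.18 to 13.2) in A159V anti-PD1. The last 2 intervals overlap. Without cells at 200 CPM or more of Rhox5 and Prl2c2 the values in the usual order were 15.1, 94.0, 10.9 and 7.27 CPM. The fibroblasts of WT anti-PD1 therefore stood apart for Edil3, with 130 of 697 cells holding a UMI after thinning (18.7%; exact binomial interval, 15.8 to 21.7).

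Immune cells, taken as cells with at least 1000 UMIs, 2 or more Ptprc UMIs and 0 UMIs of Hmga2 and Tm4sf1, numbered 3458, 3359, 2812 and 4435. Ldlrad4 was the gene of the set found in them at levels above the WT IgG tumor cells, at 114, 198, 101 and 116 CPM. A split of these cells was added after the values were seen. In cells with a UMI of the T cell gene Cd3e and none of the macrophage gene Csf1r, Ldlrad4 was at 180, 303, 180 and 239 CPM. In cells with Csf1r and no Cd3e it was at 68.7, 91.0, 38.3 and 55.6 CPM, so it was higher in the Cd3e cells of every library.

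Psd3 and Edil3 showed the opposite split. Psd3 was at 89.2, 91.4, 58.7 and 68.8 CPM in Csf1r cells and at 7.95, 21.3, 13.7 and 12.04 CPM in Cd3e cells. Edil3 was at 18.9, 45.8, 7.55 and 31.7 CPM in Csf1r cells and at 1.66, 4.58, 7.68 and 1.16 CPM in Cd3e cells, and only in A159V IgG, with 13 and 9 UMIs, were the 2 values alike.

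Levels in Cd3e cells were set beside those of A159V tumor-line cells, on the untested assumption that Cd3e cells lack Dclk1, Csmd3 and Tafa1. Dclk1 was at 1.71 and 3.88 CPM in the Cd3e cells of the 2 A159V libraries, and in their tumor-line cells it was at 2.06 CPM (1.75 to 2.41) and 2.28 CPM (1.95 to 2.64). Csmd3 was at 0.853 and 4.66 CPM in the Cd3e cells of the A159V libraries and at 1.90 and 1.38 CPM in their tumor-line cells. Tafa1 was at 1.71 and 1.55 CPM in Cd3e cells and at 1.19 and 1.16 CPM in tumor-line cells. The Cd3e values rest on few UMIs: 2 and 10 for Dclk1, 1 and 12 for Csmd3, and 2 and 4 for Tafa1. Their intervals are therefore wide. Each A159V tumor-line level lay within the Cd3e interval of its own library, except Csmd3 in A159V anti-PD1. That level lay below its interval (2.41 to 8.14). This does not show that the genes were absent from each cell, or that these levels were background from free RNA. Depth was unlike, with a median of 33173 UMIs in A159V IgG tumor-line cells and 2522.5 in all its immune cells. Dclk1, Csmd3 and Tafa1 had 156, 144 and 90 UMIs in 2185 A159V IgG tumor-line cells, and 2, 1 and 2 UMIs in 335 Cd3e cells. The part of free RNA was not tested. In WT IgG tumor-line cells Dclk1, Csmd3 and Tafa1 were at 62.2, 46.5 and 85.1 CPM.

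Per cell, the genes were patchy even in WT IgG. To compare cells of unlike depth, 5000 UMIs were drawn from each cell without replacement. Of the 1518 WT IgG tumor-line cells, 36.3% then held a Psd3 UMI (exact binomial interval, 33.9 to 38.8), 26.2% an Ldlrad4 UMI (24.0 to 28.4) and 24.2% an Edil3 UMI (22.0 to 26.4). Tafa1 and Dclk1 were each found in 17.3% (15.4 to 19.3) and Csmd3 in 14.4% (12.7 to 16.3). Without thinning the shares ran from 27.1% for Csmd3 to 64.2% for Ldlrad4. A minority of cells thus carried most UMIs: the tenth of cells with the highest counts held 74.7% of Csmd3 UMIs, 73.1% of Tafa1 UMIs and 65.3% of Edil3 UMIs, but 44.8% of Ldlrad4 UMIs.

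In A159V the shares were lower for every gene. Edil3 was found in 2.52% of A159V IgG (1.90 to 3.26) and 3.39% of A159V anti-PD1 tumor-line cells (2.57 to 4.38), and Psd3 in 7.64% (6.56 to 8.84) and 7.27% (6.07 to 8.63). Ldlrad4 was found in 2.97% and 4.24%, Dclk1 in 1.19% and 1.27%, Csmd3 in 0.961% and 0.848%, and Tafa1 in 0.503% and 0.667%. For comparison, immune cells of the 2 A159V libraries, thinned in the same way, held an Edil3 UMI in 1.60% and 6.46%, a Dclk1 UMI in 1.60% and 1.25%, and a Csmd3 UMI in 0.800% and 0.793%, at median depths of 2522.5 and 3163 UMIs before cells under 5000 UMIs were left out. The shares of Dclk1 and Csmd3 in A159V tumor-line cells lay within the intervals of those immune shares. This does not show that all their UMIs were background. Tafa1 was found in 0.267% and 0.113% of those immune cells (0.00675 to 1.48 and 0.00287 to 0.629), so its share of 0.667% in A159V anti-PD1 tumor-line cells lay above the second interval.

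**Figure D3:**
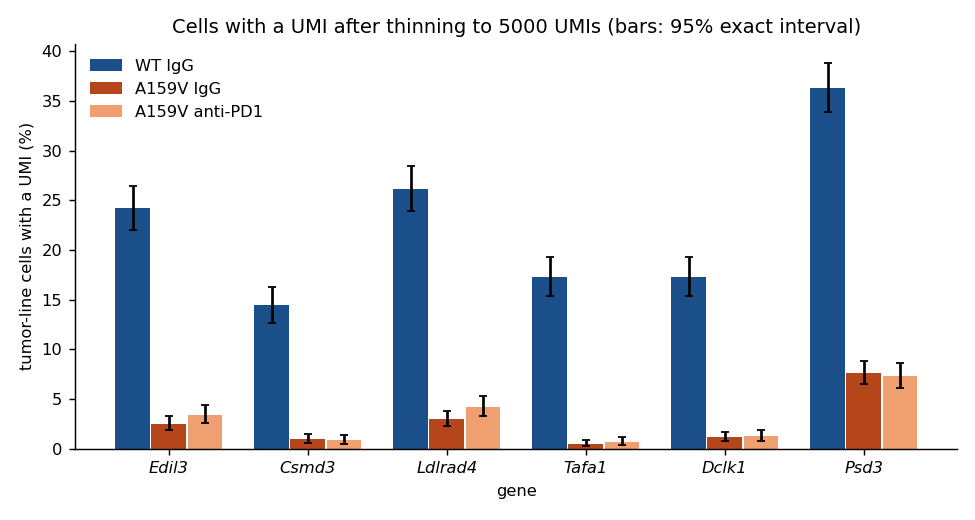
Share of tumor-line cells with a UMI of each gene after thinning each cell to 5000 UMIs, in percent, for the 3 libraries with at least 50 such cells, with 95% exact binomial intervals. WT IgG shares are 14.4% to 36.3%, and all A159V shares are 7.64% or less.

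A few A159V cells nonetheless held several UMIs of 1 gene. Cells with 5 or more Psd3 UMIs numbered 78 of 2185 (3.57%) in A159V IgG and 65 of 1650 (3.94%) in the anti-PD1 library, against 528 of 1518 in WT IgG (34.8%). For Edil3 they numbered 24, 41 and 334 in the same order. For Tafa1 they numbered 3, 4 and 256, and the highest count in any cell was 10 UMIs in both A159V libraries and 107 UMIs in WT IgG. Dclk1 reached 5 UMIs in 2 and 3 A159V cells and in 227 WT IgG cells. Csmd3 did so in 6 cells of each A159V library and in 184 WT IgG cells. Its highest counts were 11 UMIs in A159V IgG, 10 in A159V anti-PD1 and 73 in WT IgG.

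The spread between WT IgG cells was wide for their level. After thinning, the variance over the mean, which is 1 for counts that differ between cells only by chance draws, was 4.35 for Tafa1, 4.08 for Edil3, 3.71 for Psd3, 3.11 for Csmd3, 2.95 for Dclk1 and 1.89 for Ldlrad4. Over the 2099 genes whose mean lay in the range of the 6, the median of this value was 1.11, and 97.3% of them were below Ldlrad4 and 99.9% below Tafa1.

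In WT IgG each pair of the genes was found together in more cells than the product of their shares gives. For Csmd3 and Dclk1 the excess was small, with 40 cells against 37.8. The ratios carry no interval and pairs of other genes were not examined, so joint presence is not read as a trait of the set. Among WT IgG tumor-line cells, 496 (32.7%) held none of the 6 genes after thinning, 424 held 1, 306 held 2, 176 held 3, 87 held 4, 28 held 5 and 1 held all 6. In A159V IgG 1892 of 2185 cells (86.6%) held none and 45 (2.06%) held 2 or more, against 598 (39.4%) in WT IgG. The ratio of cells with both genes to the product of shares in WT IgG ran over the 15 pairs from 1.06 for Csmd3 and Dclk1 to 1.89 for Edil3 and Tafa1. Edil3 and Dclk1 followed at 1.88, with 119 cells against 63.3 by the product. From cells with none of the genes to cells with 5, the mean collagen share went from 0.0130% to 0.139% and the median depth from 36743.5 to 26441 UMIs, and the part of either in these ratios was not tested.

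**Figure D4:**
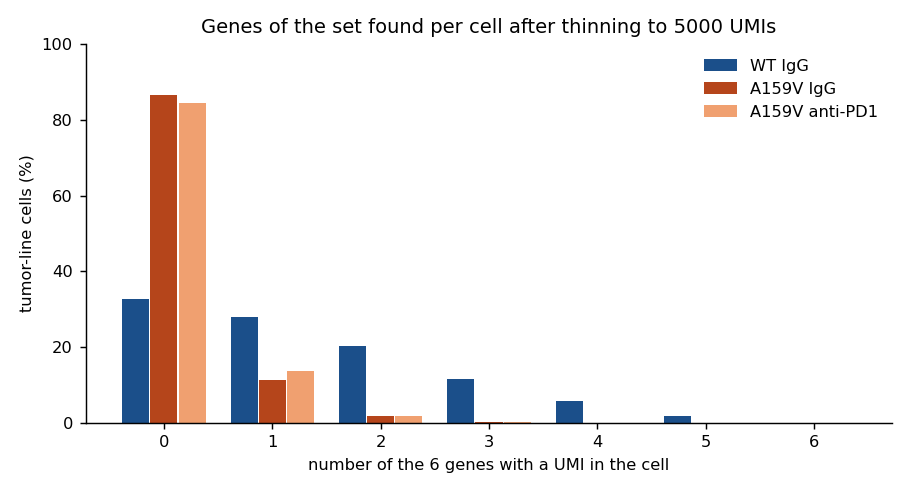
Number of the 6 genes with a UMI in each tumor-line cell after thinning to 5000 UMIs, as a percentage of cells per library. In WT IgG 32.7% of cells hold none and 39.4% hold 2 or more, while 86.6% of A159V IgG and 84.4% of A159V anti-PD1 cells hold none.

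Which WT IgG tumor cells carried the genes was examined by comparing the 391 gated cells that held an Edil3 UMI after thinning with the 1198 that did not. The 5 highest log2 ratios among genes of at least 50 CPM were those of Oaf (2.10), Dclk1 (1.74), Tafa1 (1.67), Fyb (1.61) and Cp (1.53), so 2 of the 5 are genes of the set. The 5 lowest were those of Rarres2 (-1.24), Wfdc2 (-1.13), Prl2c2 (-1.07), Il1rl1 (-1.01) and Fabp5 (-0.92). Psd3 (1.08), Ldlrad4 (0.98) and Csmd3 (0.73) were also higher in the cells with Edil3. Rhox5 differed by -0.04 and Rac1 by 0.04. Median depth was 30439 UMIs with and 32311 UMIs without Edil3.

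In tumor-line cells alone the highest ratios were those of Il33 (2.61), an alarmin cytokine, Col1a1 (2.52), Serpinf1 (2.49), Oaf (2.40) and Dclk1 (2.07). Collagen VI genes, whose products form a beaded filament network around cells, were higher with Edil3 as well, by 1.15 for Col6a1, 1.45 for Col6a2 and 1.38 for Col6a3. Prl2c2 (-1.42), which is part of this gate, and Wfdc2 (-1.24) had the lowest ratios. Col1a1 depended on the gate, with -0.22 in the wider one, which holds the cells rich in fibroblast markers.

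All 6 genes were higher in WT IgG tumor-line cells with a larger share of UMIs from Col1a1, Col1a2, Col3a1 and Dcn. These strata were set after the data were seen and hold 755 cells under 0.01%, 407 at 0.01 to 0.05%, 283 at 0.05 to 0.2% and 73 at 0.2% or more. Cells at 0.2% or more also meet the collagen cut used for fibroblasts, and the part of fibroblast RNA in their values was not tested. Edil3 was at 46.1, 134, 219 and 342 CPM from the lowest stratum to the highest. Psd3 went from 73.0 to 154, 296 and 498 CPM, and Tafa1 from 42.6 to 81.3, 181 and 214 CPM. Rhox5 was at 977, 969, 969 and 927 CPM in the same strata, and Prl2c2 at 262, 194, 108 and 54.3 CPM. Both genes set the gate of these cells, so their levels here do not check it. Dclk1 went from 27.2 to 182 CPM, Csmd3 from 30.5 to 156 CPM and Ldlrad4 from 54.1 to 137 CPM between the lowest and highest strata.

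A159V libraries held few cells of the higher strata, with 59 and 17 cells in A159V IgG and 29 and 11 cells in A159V anti-PD1 at 0.05 to 0.2% and at 0.2% or more. The lowest stratum held 1574 of the 2185 A159V IgG cells. Edil3 was at 4.22 CPM there against 46.1 CPM in WT IgG, Psd3 at 12.6 against 73.0 CPM, Ldlrad4 at 7.06 against 54.1 CPM and Dclk1 at 1.69 against 27.2 CPM. Csmd3 was at 1.38 against 30.5 CPM and Tafa1 at 0.728 against 42.6 CPM. In the 17 A159V IgG cells of the highest stratum, Psd3 reached 165 CPM (131 to 205) and Edil3 79.5 CPM (56.5 to 109), from 81 and 39 UMIs, while Tafa1 had 3 UMIs. Among cells of the lowest collagen share, each of the 6 genes was lower in A159V IgG. The genes were chosen on this difference and most A159V IgG cells lie in this stratum, so this is a description. The part of collagen level in the ratios was not tested.

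**Figure D5:**
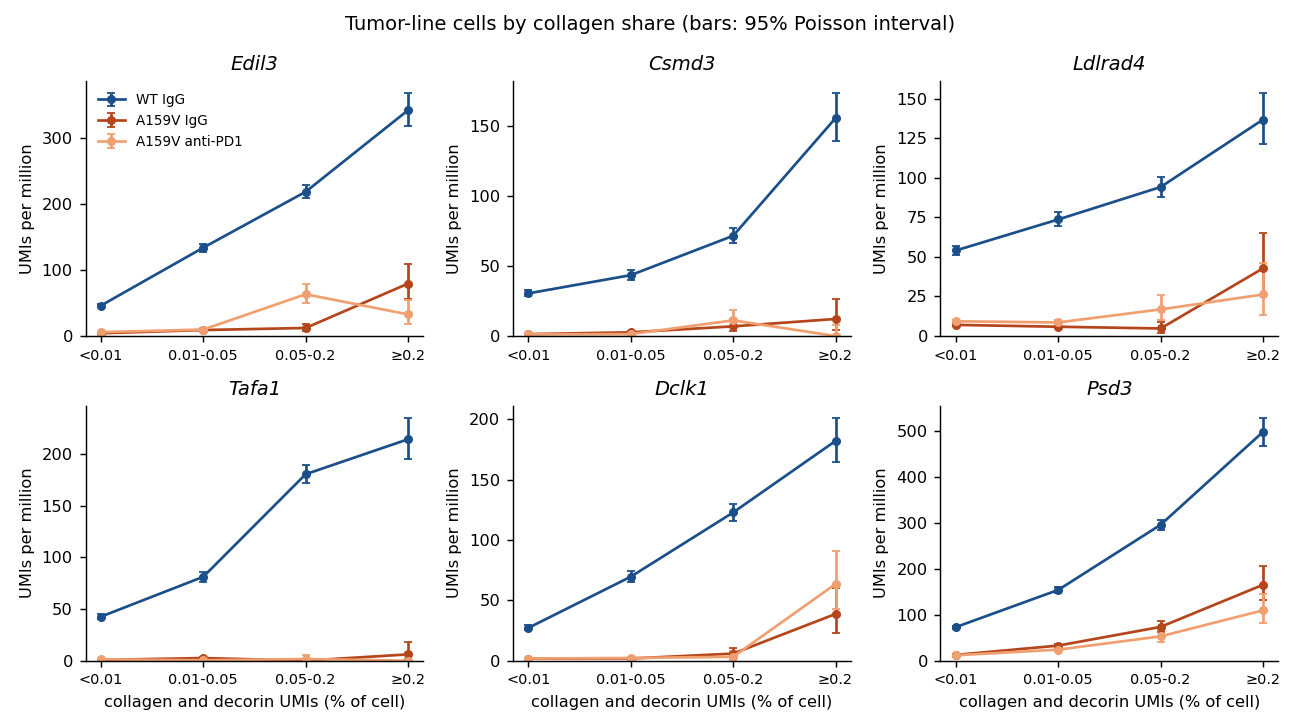
Level of each gene in CPM, on linear axes from 0, in tumor-line cells grouped by the percentage of UMIs from Col1a1, Col1a2, Col3a1 and Dcn, with 95% Poisson intervals. In WT IgG each gene is higher in each next stratum, Edil3 from 46.1 to 342 CPM. The A159V libraries lie below WT IgG in each stratum where they hold at least 50 cells, and their points from fewer cells are shown and not compared.

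The edges of the tumor gate bear on these values. In WT IgG, cells with 2 Hmga2 and Tm4sf1 UMIs, just inside, had Edil3 at 154 CPM and Dclk1 at 109 CPM, and cells with 1 UMI, just outside, had 115 and 121 CPM. In A159V IgG the values inside and outside were 10.9 and 11.0 CPM for Edil3 and 13.2 and 35.5 CPM for Dclk1. Few cells lay at the depth limit, with 4 WT IgG cells less than 1000 UMIs below it and 6 cells less than 1000 UMIs above it. Gated cells with Rhox5 and Prl2c2 under 200 CPM numbered 71, 44 and 56 in the libraries other than WT anti-PD1, and held fibroblast markers at 38405 to 51146 CPM in sum. Of the 311 Dclk1 UMIs of the A159V IgG gate, 155 came from those 44 cells, and Dclk1 was at 4.08 CPM with and 2.06 CPM without them. In the same way, Dclk1 in A159V anti-PD1 was at 5.66 CPM with and 2.28 CPM without such cells.

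Genes related to the set were taken from lists and not picked for how they moved, but with earlier results known. Of 16 paralogs of the 6 genes, 3 reached 10 CPM in 1 of the 2 IgG libraries, and none of these was past 2-fold, against 6.2% of all 8926 genes either way, so that with 3 genes nothing is read from it. Mfge8, the paralog of Edil3, was at 43.8 CPM in WT IgG and 34.8 CPM in A159V IgG, Ldlrad3 at 31.1 and 39.6 CPM, and Dclk2 at 16.6 and 13.6 CPM. Pmepa1, the paralog of Ldlrad4, was at 8.83 and 3.24 CPM, a log2 ratio of -1.21 that was -0.20 in tumor-line cells, and the other 12 were lower than that in both libraries. One of these, Tafa5, named after its value was seen, was at 3.86 CPM in WT IgG and 0.0262 CPM in A159V IgG. Of the 4 integrin genes of the Edil3 receptors, Itgav (log2 ratio, -0.52), Itgb1 (0.24) and Itgb5 (-0.40) were tested and none was past 2-fold. The neurexins, which bind Tafa proteins, were all under 10 CPM in both libraries.

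Among genes of TGF-beta signaling, the pathway that Ldlrad4 restrains, Smad3, which carries the signal, had a log2 ratio of -1.29 (25.4 CPM in WT IgG and 9.82 CPM in A159V IgG), and Smad7, an inhibitor, had -1.06 (47.1 and 22.1 CPM). The ligand gene Tgfb1 (-0.26), the receptor genes Tgfbr1 (-0.76) and Tgfbr2 (-0.69), and Smad2 (-0.07), Smad4 (-0.07), Skil (-0.30) and Smurf2 (-0.47) were within 2-fold. All 8 genes of the ARF6 list, to which Psd3 belongs by function, were tested. None was past 2-fold with 1 CPM added, which at 6.2% over all genes sets the list apart in no way. Lowest were Cyth1 (35.2 and 17.1 CPM) and Cyth3 (75.3 and 39.0 CPM, -0.93), which are also exchange factors, while Arf6 itself was at -0.18. Cyth1 lay at the 2-fold limit, at -0.997 (-1.09 to -0.900). All 3 collagen VI genes were lower, by -2.85 for Col6a1, -3.08 for Col6a2 and -1.78 for Col6a3.

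The 6 genes share a feature that the choice did not use, their length. In the GENCODE M21 annotation of GRCm38 all are protein coding. Csmd3 (ENSMUSG00000022311) spans chromosome 15 from 47580637 to 48792063 on the minus strand, or 1211 kb. Tafa1 (ENSMUSG00000059187, named Fam19a1 there) spans chromosome 6 from 96113154 to 96657198 on the plus strand, and Psd3 (ENSMUSG00000030465) spans chromosome 8 from 67689082 to 68212027 on the minus strand. Edil3 (ENSMUSG00000034488) lies on chromosome 13 from 88821472 to 89323223, Ldlrad4 (ENSMUSG00000024544) on chromosome 18 from 67933257 to 68268630 and Dclk1 (ENSMUSG00000027797) on chromosome 3 from 55242364 to 55539068, all on the plus strand.

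Exons made up 0.775% of the span in Tafa1 and 5.16% in Dclk1, with the other genes between. The shortest of the 6, Dclk1, was longer than 97.4% of the genes tested, whose median span was 26.4 kb. Long genes were more often lower in A159V IgG: 78 of 450 tested genes of 200 kb or more (17.3%) were at least 2-fold lower, 124 of 2229 genes of 50 to 200 kb (5.56%) and 194 of 6246 shorter genes (3.11%). The median log2 ratios of these classes were -0.50, -0.16 and 0.05; the 6 genes were chosen for low ratios and are no evidence on this trend. No gene on the same strand overlapped any of the 6, and 0 to 2 antisense genes did. The part of length in the ratios was not tested.

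Neighboring genes did not all follow. Within 2 Mb, 16 tested genes near Ldlrad4 had a median log2 ratio of 0.24, 20 near Psd3 a median of 0.04, 8 near Tafa1 a median of -0.07 and 12 near Dclk1 a median of -0.07. At least 2-fold lower, as were 4.44% of all genes, were 0 of those near Ldlrad4 and Tafa1, Csgalnact1 (-1.76) near Psd3, and Postn (-1.04) and Wwtr1 (-1.22) near Dclk1. Near Edil3 there were 6, with a median of -0.74 and 2 at least 2-fold lower, Vcan and Gm4117. Near Csmd3 there was 1, Trps1, at -1.69.

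Across 12 profiles, each a library and one of the tumor gate, fibroblasts and immune cells, the levels of Csmd3 and Tafa1 were most like each other of the set, with Pearson r = 0.92 on log2(CPM + 1), and each was the gene most like the other among 12013 genes. The WT anti-PD1 tumor gate, whose cells go against the name, is 1 of the 12. Without it, a choice made after the values were seen, the 3 genes most like each gene were the same but for Tex101 in place of Tpgs1 for Csmd3, and Anapc13 came just before Csmd3 for Tafa1 (both r = 0.92). Dclk1 was most like Oaf (r = 0.998), Wtip (r = 0.99) and Dpysl3 (r = 0.99). Ldlrad4 was most like Zfp36l1 (r = 0.98), Zfp608 (r = 0.98) and Ctso (r = 0.97), Psd3 was most like 4632427E13Rik, Pmp22 and Shc1 (all r = 0.98), and Edil3 was most like Tmub2 (r = 0.96), Ccdc167 and Akap7 (both r = 0.90). The tumor gates whose difference chose the genes are among the profiles, so a likeness between genes of the set was partly built in. In the WT IgG fibroblast profile, all counts of Csmd3 and Tafa1 came from 9 cells with tumor-line markers. The profiles share 4 libraries and their cell classes, so these values describe likeness of pattern alone.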

How the data were processed

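Single-cell libraries of MC38 tumors were analyzed, 1 per group. The deposited values are raw UMI counts per gene and cell barcode, which the authors made with Cell Ranger from reads counted against mm10; the matrix headers give version 7.2.0 and the submitters' processing notes version 5.0.1. The authors' methods name version 7.2 with intronic reads counted, which bears on long genes. All called barcodes were kept, no background RNA was subtracted and no doublet caller was run, but the gate on Ptprc removes tumor cells mixed with leukocytes. The 6 genes, the related lists and the gates were chosen with earlier results of these data known, except the tumor-line gate, the strata of collagen share and the splits of immune cells and fibroblasts, which were added after the values were seen.

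UMIs were summed over the cells of each class and scaled to 1e6 (CPM). Levels carry exact Poisson intervals and shares exact binomial (Clopper-Pearson) intervals, all at 95%. Log2 ratios add 1 CPM and carry delta-method intervals. The WT anti-PD1 tumor gate entered no ratio between libraries but is among the profiles of likeness; sets of under 50 cells are described and not compared. A gene was called at 2-fold among genes that reached 10 CPM in either library. Named genes were those of the set, list genes with at least 10 CPM, the 3 genes most like each gene over class profiles, and the 5 highest and lowest ratios of cells with against without Edil3; Pmepa1, Tafa5, the genes near Edil3 and Csmd3 and genes of the tumor-line contrast were named after their values were seen. Python 3.11.15 with numpy 2.4.6, scipy 1.17.1 and matplotlib 3.10.9 was used, and the ratio and thinning functions were tested on simulated data. GENCODE M21 was joined by Ensembl identifier, and start regions came from RefSeq, which matched 2 of the 6 genes; 8925 of 8926 tested genes had a span. One gene of the TGF-beta list, and the counts and median of that list, are not reported here.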

Additional observations from a re-analysis of the deposited data

How the results depend on the processing

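With 1 library per group there is no replicate error, so no value here separates genotype, clone or treatment from the single tumor preparation, and leaving out a replicate could not be done. No paired analysis was possible because each group has 1 library and the result comes from no test. Under 10 alternatives to scaling, pseudocount, gate, depth and weighting, of which the tumor-line gate was added after the data were seen, 5 or 6 of the 6 genes stood at least 2-fold below WT IgG in A159V IgG, and none was past 2-fold between A159V anti-PD1 and A159V IgG. The exception to 6 was Ldlrad4 with the immune level of the same library subtracted, where both tumor values fell to 0. With that subtraction Edil3, Csmd3, Ldlrad4 and Psd3 fell to 0 in both A159V libraries. Their ratios between the A159V libraries were thus fixed at 0 there and tell nothing about treatment. The median log2 ratio of the 6 genes, -3.91, moved to -2.47 with 10 CPM added in place of 1 and to -5.59 with the immune level subtracted. Adding 10 CPM shrinks ratios of such low levels by arithmetic, and the subtracted setting holds the values cut to 0. With the mean of per-cell CPM the median was -3.56, for which the cause was not tested. The share of all genes at least 2-fold lower, 4.44%, was 1.80% with 10 CPM added, 2.71% with no filter and 11.8% with the immune level subtracted. All 6 genes were found in a larger share of WT IgG than of A159V IgG tumor cells at every thinning depth tried. Their choice made this expected, as it did the 5 or 6 genes lower under the alternatives, so both are given as a description. In WT IgG, 2 of the 6 genes were higher in tumor cells than in both fibroblasts and immune cells, and 3 with fibroblasts of at least 1% collagen, the third being Csmd3.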
